A study of Mus musculus with 29 samples.

Results

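Expression of 10 cell adhesion genes was followed in activated mouse CD4+ T cells: Itgae, Itgb7, Cdh1, Itgb8, Itgav, Itga4, Itgb1, Itga6, Itgal and Itgb2. They encode 5 integrin alpha subunits, 4 integrin beta subunits and E-cadherin, and were chosen by name, with earlier results of these data known. All 10 were found among the 55414 gene identifiers of the count tables by matching Ensembl identifiers to mouse symbols, and all 10 passed the filter on low counts. CD4+ T cells were purified from the spleens of FoxP3-RFP reporter mice (C57BL/6-Foxp3tm1Flv/J), in which a red fluorescent protein marks cells that express Foxp3, the transcription factor of regulatory T cells. All groups carried this reporter allele and were stimulated with anti-CD3 (1.25 ug/ml), anti-CD28 (2.5 ug/ml) and interleukin 2 (50 IU/ml) in RPMI medium holding 0.5 mM glucose, 50 uM 2-mercaptoethanol, heat-inactivated serum and penicillin with streptomycin.

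The media differed in TGF-beta (none or 3 ng/ml) and lactic acid (none or 10 mM), and are called control medium (neither), lactic acid medium, TGF-beta medium and TGF-beta plus lactic acid medium. After 24 or 72 h the cells were sorted on the reporter. Reporter-negative cells (Tcon) came from all 4 media at both times, and reporter-positive cells (Treg) were collected at 72 h from the media that held TGF-beta. These Treg are cells that expressed the reporter after culture, and the labels do not say whether reporter-positive cells were removed before culture. There were 10 groups and 29 libraries, with 3 per group, save for Tcon of control medium at 72 h, where replicate 3 is not among the libraries and n = 2. Male mice gave replicate 1 in all groups, and female mice gave the other replicates. No label gives the age of the mice or says whether replicates 2 and 3 were separate animals, so the p-values measure the spread between these libraries, which may be partly technical.

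Integrins are heterodimers of an alpha and a beta subunit that hold cells to matrix or to other cells, and a subunit can pair with more than one partner. Integrin alphaE (Itgae, CD103) pairs with beta7 (Itgb7) and binds E-cadherin (Cdh1), which epithelial cells carry, and beta7 also pairs with alpha4 (Itga4), a receptor for MAdCAM-1 in gut vessels. TGF-beta is known to raise alphaE on T cells. AlphaV-beta8 (Itgav, Itgb8) releases active TGF-beta from its latent complex and is known for this role on regulatory T cells. Beta1 (Itgb1) pairs with alpha4, alpha6 (Itga6) or alphaV to bind VCAM-1, laminin or fibronectin, and LFA-1 is alphaL (Itgal) with beta2 (Itgb2), which binds ICAM-1 and is found on all T cells.

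The promoters of 5 of the 10 genes matched the RefSeq table of start sites (GRCm38.p6, while the reads were aligned to GRCm39): Itgb7, Itgb8, Itgav, Itga4 and Itgb1. Those of Itgb7, Itga4 and Itgb1 are shown because the transcripts of these potential partners did not move together under TGF-beta. Each run is the 250 bases before the start site, 5′ to 3′ on the gene's strand. Capitals mark CAGAC (reverse complement GTCTG), a core sequence bound by Smad proteins, and TGTGGT (reverse complement ACCACA), a core sequence bound by Runx factors, searched on both strands. CAGAC was present in 42.198% and TGTGGT in 14.042% of 32817 such windows, and no 2 marked matches overlapped.
Itgb7, chr15:102231936-102232185, minus strand: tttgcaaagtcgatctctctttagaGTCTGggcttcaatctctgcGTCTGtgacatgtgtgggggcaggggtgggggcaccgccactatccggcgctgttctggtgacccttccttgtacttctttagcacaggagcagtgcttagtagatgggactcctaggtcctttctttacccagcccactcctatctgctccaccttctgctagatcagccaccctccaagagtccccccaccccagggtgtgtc
Itga4, chr2:79255176-79255425, plus strand: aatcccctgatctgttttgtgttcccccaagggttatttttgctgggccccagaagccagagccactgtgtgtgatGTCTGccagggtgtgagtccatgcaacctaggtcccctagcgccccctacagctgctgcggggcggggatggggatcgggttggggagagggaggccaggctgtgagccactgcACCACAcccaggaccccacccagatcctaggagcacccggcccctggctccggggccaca
Itgb1, chr8:128685404-128685653, plus strand: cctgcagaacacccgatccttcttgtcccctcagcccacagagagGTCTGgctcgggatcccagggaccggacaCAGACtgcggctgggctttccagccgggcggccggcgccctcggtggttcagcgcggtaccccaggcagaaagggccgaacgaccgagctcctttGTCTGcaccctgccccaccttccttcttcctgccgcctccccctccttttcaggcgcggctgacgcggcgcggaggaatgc
CAGAC occurred 2 times in the Itgb7 window, 1 time in that of Itga4 and 3 times in that of Itgb1. TGTGGT occurred 1 time, in the Itga4 window. In the windows not shown, Itgb8 held CAGAC 1 time and Itgav held neither motif. Of the genes shown, those that rose with TGF-beta (Itgb7) and that fell with it at 72 h (Itga4, Itgb1) thus all held CAGAC. Itgav, which did not hold it, also rose with TGF-beta at 72 h in medium with lactic acid. Itgb8 held it and was not called for TGF-beta in Tcon. These matches are a description of the letters alone.

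Libraries held 9754511 to 14315313 gene counts. Levels are CPM, counts scaled to a common library size with TMM factors, given as mean ± SD over the libraries of a group, and values listed for a group are in the order of replicate number. A gene is called when its Benjamini-Hochberg adjusted p over the 14375 genes tested is below 0.05 in edgeR's quasi-likelihood test. All 7 T cell markers were present in every library, and Foxp3 was 153 to 573 CPM in Treg against 15.4 to 59.8 CPM in Tcon of the same media, with no overlap. In 24 h Tcon with TGF-beta Foxp3 was 44.2 to 73.3 CPM, and in Tcon without it 0 to 1.97 CPM. Among markers of cells that could bring in E-cadherin or alphaE, 5 of 6 epithelial genes were under 1 CPM in every library, with Krt8 at 0 in all, Cldn4 detected in 27, Krt18 in 20 and Cldn7 in 17, at up to 1.39 CPM. Of 6 dendritic genes 5 were under 1 CPM in every library, with Clec9a, Cd209a and Siglech at 0, and Zbtb46 was 1.10 to 13.6 CPM. Libraries of the same replicate number deviated together within a time point, so a fit with the number as a block was also made, and its value is given where it changes a call. "The block alone" means that of these 2 edgeR fits only the one with the block called the gene, and DESeq2, run without the block, is given where it made the call too. In these bulk samples more cells with a transcript and more transcript per cell cannot be told apart.

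**Figure D1:**
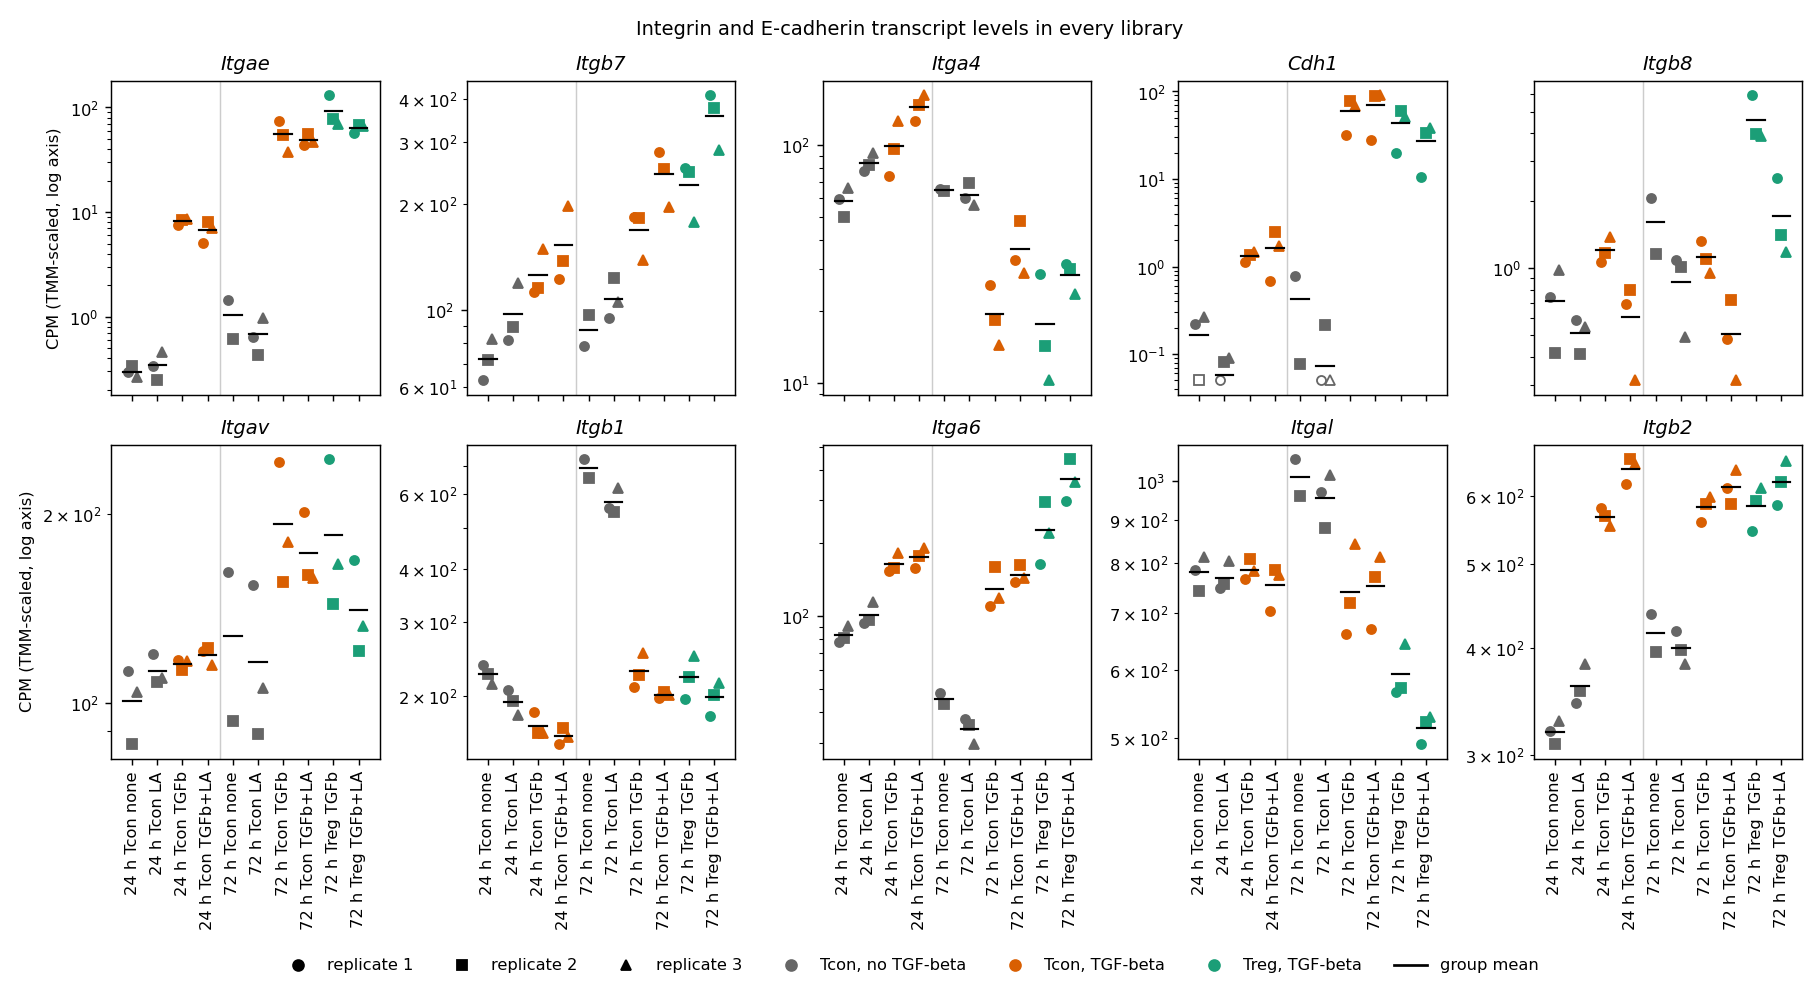
Level of each of the 10 genes (CPM, log axis) in each of the 29 libraries, by group (24 or 72 h, Tcon or Treg, and medium). Symbols are single libraries, shaped by replicate number and coloured by Tcon without TGF-beta, Tcon with it and Treg, and horizontal bars are group means, and open symbols at the bottom stand for values under 0.05 CPM drawn at 0.05. Itgae and Cdh1 span the widest ranges, 0.246 to 131 and 0 to 90.5 CPM, and Itgal and Itgb2 the narrowest, 491 to 1059 and 309 to 662 CPM.

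AlphaE was the integrin subunit among the 10 genes that moved most with TGF-beta, and it rose in both media and at both times. Without TGF-beta, Itgae was 0.296, 0.335 and 0.267 CPM in 24 h control medium and 0.334, 0.246 and 0.455 CPM in 24 h lactic acid medium. With TGF-beta it was 7.58, 8.45 and 8.59 CPM in 24 h TGF-beta medium and 5.08, 8.05 and 7.0 CPM with lactic acid added. Every 24 h library with TGF-beta was thus above every one without, by 26.5-fold in medium without lactic acid (log2 4.73 ± 0.41 SE, adjusted p = 1.52e-08) and 19.1-fold in medium with it (log2 4.26 ± 0.42 SE, adjusted p = 9.23e-08). At 72 h, Tcon in control medium held 1.45 and 0.614 CPM and Tcon in lactic acid medium 0.635, 0.434 and 0.981 CPM. Tcon in TGF-beta medium held 74.8, 55.0 and 37.9 CPM and in TGF-beta plus lactic acid medium 43.6, 56.2 and 47.2 CPM. The groups were again apart, by 54.4-fold (log2 5.77 ± 0.38, adjusted p = 1.59e-10) and 71.3-fold (log2 6.16 ± 0.34, adjusted p = 2.68e-12). The levels without TGF-beta rest on 3 to 17 counts per library.

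The group means of Itgae were highest in Treg, whose libraries held 131, 78.1 and 69.0 CPM in TGF-beta medium and 56.5, 67.5 and 66.1 CPM in TGF-beta plus lactic acid medium. In the medium without lactic acid, Treg exceeded Tcon of the same number in 3 of 3 pairs, by 1.66-fold, which was called with the replicate block alone (log2 0.73 ± 0.17, adjusted p = 0.0135, against 0.329 without it). With lactic acid Treg were also higher in 3 of 3 pairs and the libraries did not overlap, but neither fit called it (adjusted p = 0.533, and 0.154 with the block). Lactic acid went with less Itgae in Treg in 3 of 3 pairs, again called with the block alone (log2 -0.50 ± 0.17, adjusted p = 0.0347, against 0.193). From 24 to 72 h Itgae rose 6.81-fold in TGF-beta medium (adjusted p = 4.12e-09) and 7.27-fold in TGF-beta plus lactic acid medium (adjusted p = 2.73e-09). In control medium its rise of 3.31-fold (adjusted p = 0.0248) was lost with the block (adjusted p = 0.0570). It was also lost without any 1 of replicates 1 and 3 of 24 h Tcon in control medium and replicate 1 of 72 h Tcon in control medium (adjusted p from 0.0570 to 0.392). Over the 9 steps between neighbours in the order of its 10 group means, libraries were apart at 3: between groups without TGF-beta and those with it at 24 h, between these and the 72 h TGF-beta groups, and between Treg in TGF-beta plus lactic acid medium and Treg in TGF-beta medium. The share of such steps over all genes was not computed.

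E-cadherin, the ligand of alphaE-beta7, was nearly absent without TGF-beta and rose with it late. Cdh1 had 6 counts over the 3 libraries of 24 h control medium and 2 over those of 24 h lactic acid medium. With TGF-beta at 24 h it was 1.14, 1.34 and 1.46 CPM without lactic acid and 0.689, 2.47 and 1.73 CPM with it. All 6 of these libraries lay above all 6 without TGF-beta. The rise was called in medium with lactic acid (log2 4.62 ± 1.40, adjusted p = 0.0307), where pooled counts of 61 against 2 give a ratio of 29 (95% interval 7.70 to 245) that covers counting error only. It was lost without any 1 of replicates 1, 2 and 3 of 24 h Tcon in lactic acid medium and replicates 2 and 3 of 24 h Tcon in TGF-beta plus lactic acid medium (adjusted p from 0.0632 to 0.127). In medium without lactic acid it was called with the replicate block alone (log2 2.91 ± 0.73, adjusted p = 0.00353, against 0.122, and 0.0117 in DESeq2).

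At 72 h Cdh1 was 0.770 and 0.0768 CPM in Tcon of control medium and 0, 0.217 and 0 CPM in those of lactic acid medium, from 10 and 3 counts in all. In Tcon of TGF-beta medium it was 32.0, 78.6 and 69.0 CPM and of TGF-beta plus lactic acid medium 28.3, 88.8 and 90.5 CPM. The rise with TGF-beta was called in both media (log2 7.16 ± 0.87, adjusted p = 1.53e-06, and log2 9.57 ± 0.89, adjusted p = 1.13e-08), and the latter, with 3 counts in the lower group, has a ratio of pooled counts of 838 (95% interval 286 to 4066). Of the 10 genes Cdh1 also had the steepest rise from 24 to 72 h, 45.4-fold in TGF-beta medium (adjusted p = 1.46e-07) and 41.8-fold with lactic acid added (adjusted p = 1.27e-07). Whether the TGF-beta effect grew from 24 to 72 h could be tested: the difference was called with the block in medium without lactic acid (log2 4.11 ± 1.39, adjusted p = 0.0389, against 0.317 without it, and 0.0143 in DESeq2). With lactic acid neither edgeR fit called it (adjusted p = 0.433 and 0.131), while DESeq2 did (0.0172).

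Treg held less Cdh1 than Tcon, the opposite order to Itgae. It was 19.7, 59.2 and 50.6 CPM in Treg of TGF-beta medium and 10.6, 33.8 and 37.9 CPM in Treg of TGF-beta plus lactic acid medium. Tcon of the same number were higher in all 6 pairs, and the difference was called with the replicate block in the medium with lactic acid (log2 -1.34 ± 0.16, adjusted p = 4.62e-06, against 0.161 without it), and in neither fit without lactic acid (1.00, and 0.0893 with the block). Lactic acid went with less Cdh1 in Treg in 3 of 3 pairs, also called with the block alone (log2 -0.68 ± 0.17, adjusted p = 0.00482, against 0.519). In each of the 4 TGF-beta groups at 72 h replicate 1, from male mice, was lowest, at 10.6 to 32.0 CPM, against 33.8 to 90.5 CPM in replicates 2 and 3. Within each number Tcon still stood above Treg. Epithelial markers, which could bring Cdh1, summed over 6 genes to 1.37 to 1.38 CPM in Tcon of 72 h control medium, 0.816 to 0.981 CPM with lactic acid, 0.634 to 1.89 CPM with TGF-beta and 0.559 to 0.628 CPM with both. At 24 h it was 0.0889 to 0.445 CPM in control medium, 0.0911 to 0.251 with lactic acid, 0.335 to 0.489 with TGF-beta and 0.393 to 0.637 with both. In Treg it was 0.664 to 1.74 CPM and, with lactic acid, 0.546 to 0.590. The part of these markers in the Cdh1 values was not tested.

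AlphaE has 1 known partner, beta7, and beta7 has the pair alphaE and alpha4, so the share of each was set out. Itgb7 rose less than Itgae with TGF-beta. At 24 h it was 62.8, 72.0 and 82.6 CPM in control medium and 112, 115 and 149 CPM in TGF-beta medium, with no overlap (log2 0.79 ± 0.20, adjusted p = 0.00991). In the media with lactic acid it was 81.8, 89.4 and 119 CPM and 123, 138 and 198 CPM (log2 0.66 ± 0.20, adjusted p = 0.0303). The first call was lost without any 1 of replicate 1 of 24 h Tcon in control medium and replicate 3 of 24 h Tcon in TGF-beta medium (adjusted p from 0.0717 to 0.0788). The second was lost without any 1 of replicates 1 and 2 of 24 h Tcon in lactic acid medium and replicate 3 of 24 h Tcon in TGF-beta plus lactic acid medium (adjusted p from 0.121 to 0.248). At 72 h Itgb7 was 78.6 and 96.5 CPM in Tcon of control medium and 184, 182 and 139 CPM in Tcon of TGF-beta medium (log2 0.94 ± 0.23, adjusted p = 0.00359). With lactic acid in both media it was 94.6, 123 and 105 CPM and 282, 252 and 196 CPM (log2 1.18 ± 0.20, adjusted p = 4.75e-05). Groups without TGF-beta lay below those with it in each of these pairs.

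Treg of TGF-beta plus lactic acid medium held the most Itgb7 of all groups, 409, 376 and 285 CPM, against 254, 247 and 178 CPM in Treg of TGF-beta medium. Higher Itgb7 with lactic acid was seen in every pair of same-numbered libraries in all 5 lactic acid comparisons, and passed with the replicate block in 4 of them. These were 24 h Tcon without TGF-beta (log2 0.41 ± 0.10, adjusted p = 0.0190), 72 h Tcon without TGF-beta (log2 0.43 ± 0.11, adjusted p = 0.0381), 72 h Tcon with TGF-beta (log2 0.53 ± 0.09, adjusted p = 0.000314) and Treg (log2 0.66 ± 0.09, adjusted p = 2.09e-05). Without the block none of the 5 passed in edgeR (adjusted p = 0.694, 0.722, 0.184 and 0.0667 for those 4), while DESeq2 called that in Treg (adjusted p = 0.0285). In the fifth, 24 h Tcon with TGF-beta, the adjusted p was 0.80, and 0.100 with the block. Treg exceeded same-numbered Tcon in 6 of 6 pairs, called with the block in both media (log2 0.42 ± 0.09, adjusted p = 0.0114, and with lactic acid log2 0.55 ± 0.09, adjusted p = 0.000265) and not without it (0.833 and 0.173). From 24 to 72 h the rise of Itgb7 in TGF-beta plus lactic acid medium was called (1.59-fold, adjusted p = 0.00738), though not without replicate 1 of 24 h Tcon in TGF-beta plus lactic acid medium (adjusted p = 0.0514).

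Alpha4, the other partner of beta7, rose with TGF-beta at 24 h and fell with it at 72 h. Itga4 was 59.4, 49.9 and 65.9 CPM in 24 h control medium and 74.2, 96.0 and 126 CPM in 24 h TGF-beta medium, and the rise was called with the block alone (log2 0.74 ± 0.17, adjusted p = 0.00140, against 0.0586, and 0.0478 in DESeq2). In the 24 h media with lactic acid it was 77.8, 82.0 and 92.5 CPM and, with TGF-beta, 126, 148 and 162 CPM (log2 0.79 ± 0.26, adjusted p = 0.0442). This last group was the highest of the 10. Its call was lost without any 1 of replicates 1, 2 and 3 of 24 h Tcon in lactic acid medium and replicates 2 and 3 of 24 h Tcon in TGF-beta plus lactic acid medium (adjusted p from 0.0651 to 0.163). At 72 h Tcon of control medium held 65.0 and 64.2 CPM and Tcon of TGF-beta medium 25.7, 18.4 and 14.5 CPM, lower by 3.31-fold (log2 -1.73 ± 0.29, adjusted p = 0.000106). With lactic acid the levels were 60.0, 68.9 and 55.9 CPM without and 32.9, 47.9 and 29 CPM with TGF-beta (log2 -0.76 ± 0.26, adjusted p = 0.0219). The groups were apart in both media. The call with lactic acid was lost without any 1 of replicate 2 of 72 h Tcon in lactic acid medium and replicates 1 and 3 of 72 h Tcon in TGF-beta plus lactic acid medium (adjusted p from 0.0742 to 0.0982). The difference between the 2 effects was tested, which does not by itself show a rise at 24 h. The TGF-beta effect at 72 h minus that at 24 h was log2 -2.49 ± 0.39 without lactic acid (adjusted p = 0.000342) and -1.54 ± 0.37 with it (adjusted p = 0.00558), called in each fit with 1 library left out.

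Within TGF-beta medium Itga4 thus fell 5.06-fold from 24 to 72 h (adjusted p = 2.35e-07), and 3.98-fold with lactic acid (adjusted p = 1.64e-06). Treg held 28.6, 14.2 and 10.2 CPM in TGF-beta medium and 31.6, 30.2 and 23.6 CPM with lactic acid added, and did not pass against Tcon in either fit. Lactic acid went with more Itga4 in same-numbered libraries of all 3 groups that also had TGF-beta, in 9 of 9 pairs, called with the block alone in each. The difference was log2 0.57 ± 0.16 at 24 h (adjusted p = 0.0305, against 0.583), log2 0.91 ± 0.19 in Tcon at 72 h (0.00184, against 0.0859, and 0.0291 in DESeq2) and log2 0.71 ± 0.20 in Treg (0.0131, against 0.183).

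Per kilobase of exon, a rough way to compare transcripts of different genes, alphaE was a small share of the summed alphaE and alpha4 transcripts without TGF-beta. It made up 1.58% ± 0.399 (SD) in 24 h control medium and 1.23% ± 0.292 in lactic acid medium. With TGF-beta at 24 h the share was 20.7% ± 3.32, and 12.3% ± 1.74 with lactic acid. At 72 h it was 4.61% ± 2.51 (n = 2) in control and 3.36% ± 1.61 in lactic acid medium, against 89.6% ± 0.681 and 80.5% ± 2.56 in Tcon with TGF-beta. Treg stood at 94.3% ± 1.02, and at 87.1% ± 2.52 with lactic acid. The beta7 level per kilobase was above the alphaE and alpha4 levels together in every group, 81.6 CPM per kilobase in Treg of TGF-beta medium, where alphaE was 20.2 and alpha4 1.27. The lengths are the union of all annotated exons in a GENCODE annotation of GRCm38, 13978 bases for Itga4 and 4581 for Itgae. The shares depend on these lengths, which may differ from those of the transcripts expressed. These are transcript levels, and say nothing of assembled heterodimers.

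**Figure D2:**
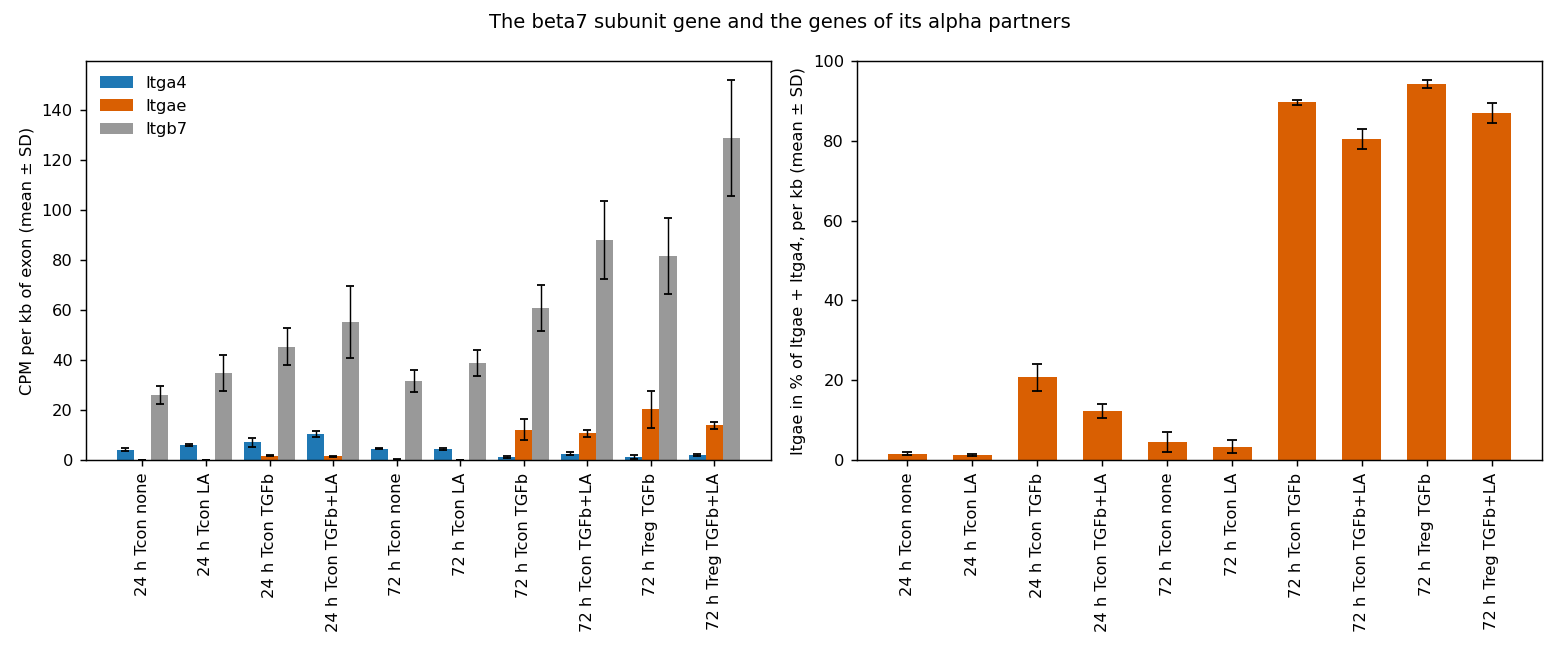
Left, levels of Itga4, Itgae and Itgb7 in CPM per kilobase of exon by group, and right, Itgae in percent of the sum of Itgae and Itga4 per kilobase. Bars are group means and error bars ± SD over 3 libraries (2 for 72 h Tcon without additions), and the share is at most 4.61% in groups without TGF-beta and at least 80.5% in 72 h groups with it.

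AlphaV-beta8, the TGF-beta activating integrin, differed in its beta8 subunit, which was higher in Treg. Itgb8 was 5.92, 3.98 and 3.91 CPM in Treg and 1.31, 1.09 and 0.95 CPM in Tcon of TGF-beta medium. With lactic acid it was 2.53, 1.40 and 1.18 CPM in Treg and 0.479, 0.719 and 0.314 CPM in Tcon. All 6 Treg libraries were above the Tcon libraries of their medium, by 4.09-fold (log2 2.03 ± 0.34, adjusted p = 0.00695) and, with lactic acid, 3.43-fold (log2 1.78 ± 0.41, adjusted p = 0.0173). The first call was lost without replicate 3 of 72 h Tcon in TGF-beta medium (adjusted p = 0.0645). The second was lost without any 1 of replicates 1 and 3 of 72 h Tcon in TGF-beta plus lactic acid medium and replicate 1 of 72 h Treg in TGF-beta plus lactic acid medium (adjusted p from 0.0763 to 0.104). Itgb8 was a low transcript, with at most 78 counts in a library.

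Lactic acid went with less Itgb8 in all 14 pairs of same-numbered libraries over the 5 lactic acid comparisons. In Treg the fall was 2.69-fold, with no overlap (log2 -1.43 ± 0.32, adjusted p = 0.0141). It was lost without any 1 of replicate 1 of 72 h Treg in TGF-beta medium and replicates 2 and 3 of 72 h Treg in TGF-beta plus lactic acid medium (adjusted p from 0.0895 to 0.108). In Tcon at 72 h with TGF-beta it was called with the block alone (log2 -1.19 ± 0.38, adjusted p = 0.0330, against 0.171). The other 3 did not pass in either fit. At 24 h Itgb8 was 0.741, 0.418 and 0.978 CPM in control medium, 0.585, 0.410 and 0.547 CPM in lactic acid medium, 1.06, 1.17 and 1.37 CPM in TGF-beta medium and 0.689, 0.797 and 0.314 CPM in the medium with both. At 72 h Tcon held 2.05 and 1.15 CPM in control medium and 1.09, 1.01 and 0.490 CPM in lactic acid medium. No TGF-beta comparison of Itgb8 in Tcon passed, with adjusted p = 0.255 and 0.809 at 24 h and 0.394 and 0.142 at 72 h, without and with lactic acid. From 24 to 72 h in control medium it rose 2.23-fold (adjusted p = 0.0282). This was lost without any 1 of replicates 1 and 2 of 24 h Tcon in control medium and replicate 1 of 72 h Tcon in control medium (adjusted p from 0.0563 to 0.358).

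AlphaV varied little by comparison. Itgav was 85.8 to 162 CPM (median 108) in the 11 libraries without TGF-beta, and at 24 h with it 113 to 122 CPM (median 117). At 72 h with TGF-beta it was 156 to 242 CPM (median 170.2) in Tcon and 121 to 245 CPM (median 155) in Treg. Libraries overlapped at all 9 steps of its group order, a count for which no share over all genes was computed. Itgav rose with TGF-beta at 72 h by 1.49-fold in medium with lactic acid (log2 0.58 ± 0.21, adjusted p = 0.0311). This was lost without any 1 of replicates 2 and 3 of 72 h Tcon in lactic acid medium and replicate 1 of 72 h Tcon in TGF-beta plus lactic acid medium (adjusted p from 0.105 to 0.160). In medium without lactic acid it rose with the block alone (log2 0.67 ± 0.09, adjusted p = 1.57e-06, against 0.0734). In each 72 h group the male replicate 1 was highest. With the block, Itgav was also lower with lactic acid in Treg (log2 -0.37 ± 0.08, adjusted p = 0.00122, against 0.356) and lower in Treg than in Tcon of the lactic acid medium (log2 -0.31 ± 0.08, adjusted p = 0.0101, against 0.626). Its rise from 24 to 72 h was called in TGF-beta medium (1.67-fold, adjusted p = 0.00572) and with lactic acid added (1.45-fold, 0.0415). The former was lost without replicate 1 of 72 h Tcon in TGF-beta medium (adjusted p = 0.0513). The latter was lost without any 1 of replicates 1, 2 and 3 of 24 h Tcon in TGF-beta plus lactic acid medium and replicate 1 of 72 h Tcon in TGF-beta plus lactic acid medium (adjusted p from 0.0768 to 0.169).

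Beta1 and alpha6, which together bind laminin, moved in opposite directions. Itgb1 was 237, 225 and 214 CPM in 24 h control medium and 184, 164 and 164 CPM in 24 h TGF-beta medium, a fall with no overlap (log2 -0.40 ± 0.09, adjusted p = 0.00513). In the 24 h media with lactic acid it was 207, 195 and 181 CPM and 154, 169 and 160.1 CPM, a fall called with the block alone (log2 -0.27 ± 0.07, adjusted p = 0.00356, against 0.0571, and 0.0116 in DESeq2). At 72 h Tcon held 725 and 654 CPM in control medium and 555, 545 and 622 CPM in lactic acid medium. With TGF-beta they held 211, 224 and 253 CPM and, with both additions, 198, 205 and 201 CPM. Cells without TGF-beta had thus raised Itgb1 3.06-fold from 24 to 72 h (adjusted p = 2.41e-11), or 2.95-fold in lactic acid medium (8.71e-12), and those with TGF-beta 1.34-fold (0.000563), or 1.25-fold with both (0.00644). At 72 h TGF-beta therefore went with 3.01-fold less Itgb1 (log2 -1.59 ± 0.10, adjusted p = 9.98e-11) and, with lactic acid, 2.85-fold less (log2 -1.51 ± 0.09, adjusted p = 1.86e-11). The TGF-beta effect was more negative at 72 h than at 24 h, by log2 -1.19 ± 0.14 (adjusted p = 1.09e-05) and, with lactic acid, -1.24 ± 0.13 (1.36e-06). Treg, at 197, 222 and 249 CPM and with lactic acid 179.8, 202 and 215 CPM, did not pass against Tcon (adjusted p = 1.00 and 0.969). Lactic acid without TGF-beta at 72 h went with less Itgb1 with the block alone (log2 -0.32 ± 0.07, adjusted p = 0.0183, against 0.458).

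Alpha6 rose with TGF-beta in both media and at both times, and was highest in Treg. Itga6 was 78.1, 81.2 and 91.2 CPM in 24 h control medium and 153, 157 and 182 CPM with TGF-beta (log2 0.97 ± 0.17, adjusted p = 0.000388). With lactic acid it was 93.3, 95.7 and 114 CPM and, with TGF-beta, 158, 176 and 191 CPM (log2 0.80 ± 0.17, adjusted p = 0.00265). The groups were apart in both media. At 72 h Tcon held 47.8 and 43.1 CPM in control medium and 109, 159 and 118 CPM in TGF-beta medium (log2 1.5 ± 0.20, adjusted p = 7.22e-06). With lactic acid they held 37.5, 35.4 and 29.5 CPM without and 138, 162 and 143 CPM with TGF-beta (log2 2.11 ± 0.18, adjusted p = 3.47e-09). The effect was larger at 72 h than at 24 h with lactic acid, by log2 1.32 ± 0.25 (adjusted p = 0.000790), and without lactic acid with the block alone (log2 0.54 ± 0.18, adjusted p = 0.0372, against 0.294). Without TGF-beta Itga6 fell from 24 to 72 h, 1.84-fold in control medium (adjusted p = 0.00116) and 2.95-fold in lactic acid medium (2.09e-07).

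Treg held 163, 294 and 221 CPM of Itga6 in TGF-beta medium and 297, 443 and 357 CPM in TGF-beta plus lactic acid medium, all above the Tcon libraries of their medium. The excess over Tcon was 1.75-fold (log2 0.81 ± 0.17, adjusted p = 0.0460) and, with lactic acid, 2.47-fold (log2 1.31 ± 0.17, adjusted p = 0.000181). The first was lost without any 1 of replicates 1 and 3 of 72 h Tcon in TGF-beta medium and replicates 2 and 3 of 72 h Treg in TGF-beta medium (adjusted p from 0.102 to 0.577). The second held in all 6 such fits. In Treg Itga6 was 1.62-fold higher with lactic acid, with no overlap (log2 0.69 ± 0.17, adjusted p = 0.0238). This call was lost without any 1 of replicates 1 and 3 of 72 h Treg in TGF-beta medium and replicates 2 and 3 of 72 h Treg in TGF-beta plus lactic acid medium (adjusted p from 0.0666 to 0.204). In Tcon no lactic acid comparison of Itga6 passed in either fit. The lactic acid effect in Treg minus that in Tcon did not pass either (adjusted p = 1.00, and 0.453 with the block).

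**Figure D3:**
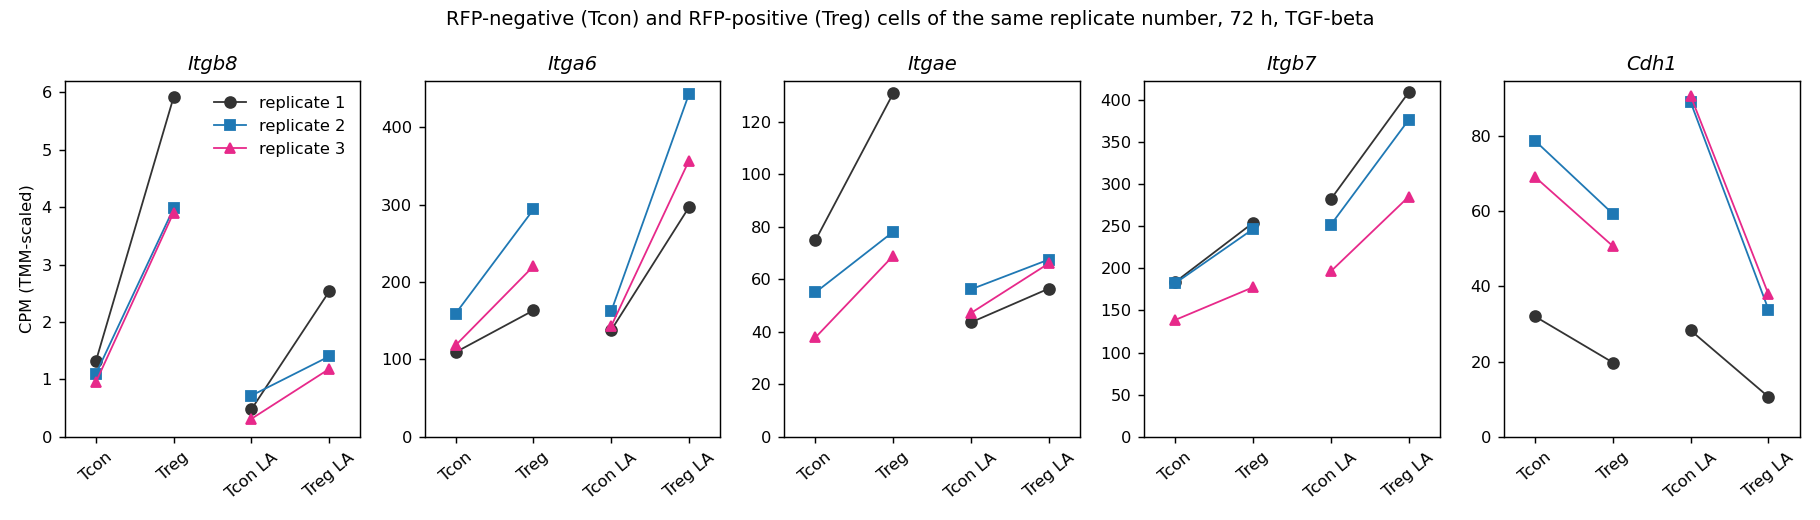
Levels (CPM, from 0) of Itgb8, Itga6, Itgae, Itgb7 and Cdh1 in the 12 libraries of 72 h cells with TGF-beta, Tcon beside Treg, without and with lactic acid (LA). Lines join libraries of the same replicate number, and Cdh1 is lower in Treg in all 6 pairs while the other 4 genes are higher in all 6.

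The subunits of LFA-1 had the narrowest ranges of the 10 genes over single libraries, and did not move alike. By group means Itgav was narrowest (1.92-fold from lowest to highest), then Itgal (1.96-fold) and Itgb2 (2.02-fold). Itgal was 744 to 813 CPM (median 772) in the 6 libraries of 24 h without TGF-beta and 705 to 809 CPM (median 779) in the 6 with it. Neither 24 h comparison with TGF-beta passed (adjusted p = 0.965 and 0.886). At 72 h Itgal in Tcon was 1059 and 959 CPM in control medium and 662, 719.8 and 842 CPM in TGF-beta medium, lower by 1.36-fold (log2 -0.44 ± 0.10, adjusted p = 0.00222). This was lost without replicate 1 of 72 h Tcon in control medium (adjusted p = 0.0522). With lactic acid it was 970.1, 880.1 and 1015 CPM and 671, 771 and 815 CPM (log2 -0.34 ± 0.09, adjusted p = 0.00399). Tcon with TGF-beta were below those without it in both media.

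Treg held the least Itgal, 565, 572 and 644 CPM in TGF-beta medium and 491, 522 and 529 CPM with lactic acid added. The difference from Tcon was called in the medium with lactic acid (log2 -0.55 ± 0.09, adjusted p = 0.00144), and in the other with the block alone (log2 -0.32 ± 0.07, adjusted p = 0.00612, against 0.268, and 0.0495 in DESeq2). Lactic acid went with less Itgal in Treg, also with the block alone (log2 -0.21 ± 0.07, adjusted p = 0.0289, against 0.237). From 24 to 72 h without TGF-beta Itgal rose 1.29-fold (adjusted p = 0.00506), lost without replicate 1 of 72 h Tcon in control medium (adjusted p = 0.0918). In lactic acid medium it rose 1.24-fold (0.00761).

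Itgb2, the partner of alphaL, rose with TGF-beta instead. It was 309 to 437 CPM (median 383) in the 11 libraries without TGF-beta, 553 to 662 CPM (median 599.8) in the 6 of 24 h with it and 546 to 658 CPM (median 595) in the 12 of 72 h with it. The libraries with and without TGF-beta did not overlap. The rise was 1.78-fold at 24 h (log2 0.83 ± 0.07, adjusted p = 1.15e-08), and 1.78-fold with lactic acid (1.19e-08). At 72 h it was 1.40-fold (log2 0.48 ± 0.08, adjusted p = 8.90e-05), and 1.54-fold with lactic acid (2.69e-07). The difference between Treg and Tcon did not pass in either medium (adjusted p = 1.00 and 0.954). Myeloid cells also carry beta2, and 8 myeloid markers summed to 4.96 to 7.45 CPM in Tcon of 72 h control medium, 4.63 to 5.31 with lactic acid, 11 to 12.2 with TGF-beta and 14.8 to 20.1 with both. At 24 h the sums were 2.76 to 4.27, 2.46 to 4.65, 3.75 to 4.18 and 4.94 to 6.84 CPM in the same order. Of the 8, Cd14 was at 0 and 6 in all were under 1 CPM in every library. Of the 2 tested, 1 was called higher with TGF-beta at each time and in each medium (backgrounds 11.3% and 12.4% at 24 h, 24.5% and 45.0% at 72 h). Their part in the Itgb2 values was not tested. In Tcon of 72 h control medium Itgal was at 154 and Itgb2 at 136 CPM per kilobase of exon, where Itgb1 was 169, Itgb7 31.6, Itgav 11.9 and Itga4 4.62. In Treg of TGF-beta plus lactic acid medium Itgb2 was 204, Itgb7 129, Itgal 78.2 and Itgb1 48.7.

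Across all 10 groups, few neighbours in the order of group means were apart in all their libraries. Of 9 steps, 4 were apart for Itga6, 3 each for Itgae, Itgal and Itgb2, 2 each for Cdh1, Itga4 and Itgb1, 1 each for Itgb7 and Itgb8 and none for Itgav. The share of such steps over all genes was not computed, so these counts do not say whether the 10 genes are unusual. Itgb7 rose without a gap from 24 h control medium to Tcon in TGF-beta plus lactic acid medium at 72 h, and Treg of that medium stood apart above. Cdh1 was apart between the groups without TGF-beta and 24 h TGF-beta medium, and again between the 24 h and 72 h groups with TGF-beta. Itgb8 was apart at the top, where Treg of TGF-beta medium lay above Treg with lactic acid. Itga4 was apart between the 72 h groups with TGF-beta, which were lowest, and 24 h control medium, and again below 24 h lactic acid medium. Itgb1 was apart below Tcon of 72 h lactic acid medium and between that group and Tcon of 72 h control medium, the highest. Itgb2 was apart at both steps that led up from 24 h control through 24 h lactic acid to 72 h lactic acid medium, and between the groups without TGF-beta and those with it. At the second of these steps the nearest libraries almost touched, at 383.125 and 383.132 CPM.

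Counted over the 10 genes, the comparisons differed in how far they stood from all genes tested. The 10 genes were chosen with earlier results of these data known, so these counts are a description and no test of the set. TGF-beta at 24 h called 5 of 10 without lactic acid (4 higher, 1 lower, where 11.3% of all genes tested were called, 7.96% higher and 3.35% lower) and 6 of 10 with it (all higher, background 12.4%, with 8.06% higher and 4.38% lower). At 72 h it called 8 of 10 (5 higher, 3 lower, background 24.5%, with 12.8% higher and 11.7% lower) and, with lactic acid, 9 of 10 (6 higher, 3 lower, background 45.0%, with 22.5% higher and 22.5% lower). With the block the 4 counts were 7, 7, 9 and 9 (backgrounds 31.7%, 32.4%, 45.4% and 60.0%). The median log2 fold change of the 10 genes was 0.78 and 0.72 at 24 h and 0.54 and 0.60 at 72 h, without and with lactic acid, beside 0.00, 0.01, -0.03 and -0.02 over all genes. The count of 6 fell to 3 when replicate 1 or 2 of 24 h Tcon in lactic acid medium or replicate 3 of 24 h Tcon in TGF-beta plus lactic acid medium was left out. These fits called 976, 1140 and 1088 of all genes, against 1788 with every library. Between the TGF-beta effects at 72 and 24 h, 2 of 10 differed without lactic acid (background 5.73%) and 3 with it (14.4%), or 7 (19.4%) and 6 (33.6%) with the block, which added Itgb2, Cdh1, Itgav, Itga6 and Itgal without lactic acid and Itgb7, Itgav and Itgal with it. DESeq2 called 5 in each, adding Itgb2, Cdh1 and Itgal without lactic acid and Itgae and Cdh1 with it. Of all 14375 genes DESeq2 called 1159 and 2382 for these differences. Over time, 6 of 10 were called in control medium (background 45.5%), 3 in lactic acid medium (46.6%), 5 in TGF-beta medium (52.8%) and 6 in the medium with both (47.4%), shares on both sides of the background. Without replicate 1 of 72 h Tcon in control medium, the count of 6 in control medium fell to 3, and that of all genes from 6538 to 3973.

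**Figure D4:**
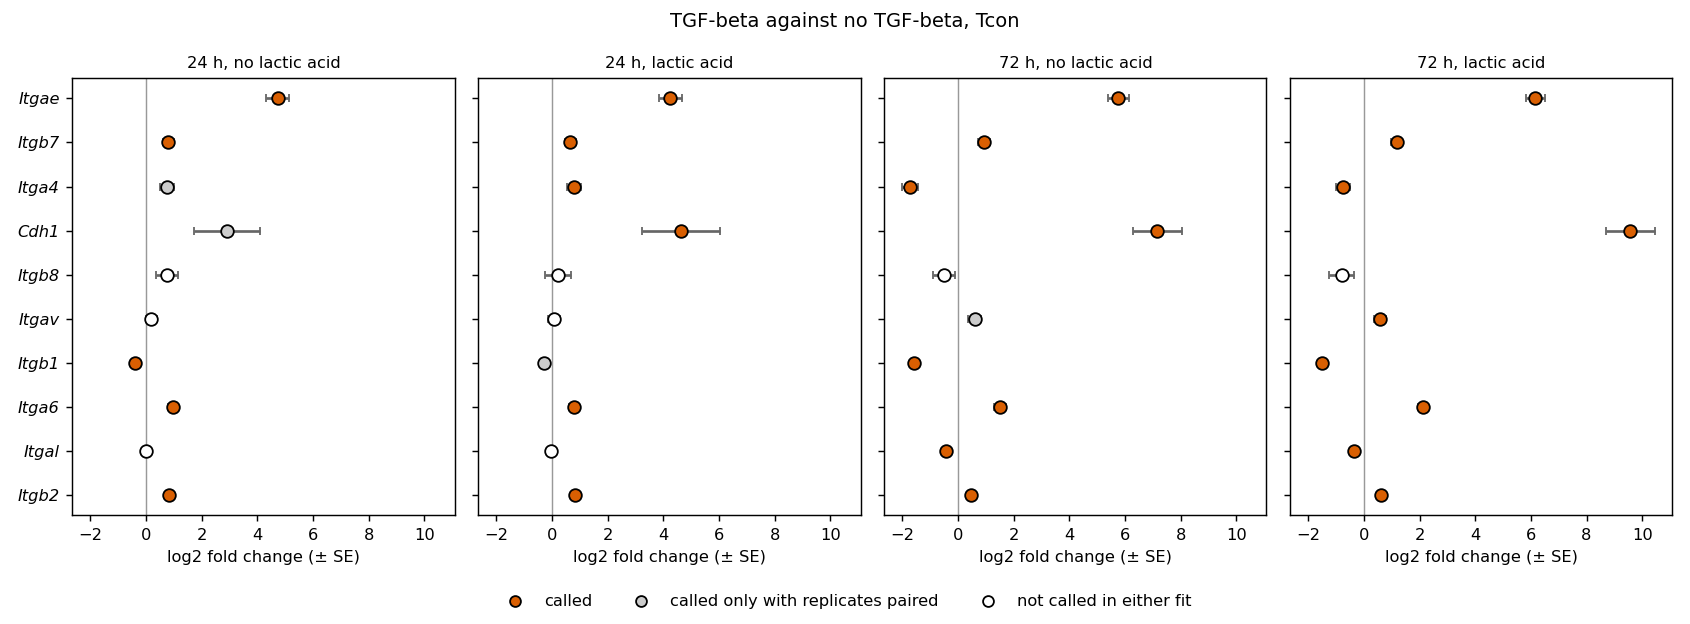
Log2 fold change (± SE) of each gene with TGF-beta against without, in Tcon, at 24 and 72 h and without and with lactic acid, with coloured symbols for called genes, grey for those called with the replicate block alone and white for the rest. Itgae and Cdh1 lie farthest to the right in every panel, and Itga4 is right of 0 at 24 h and left of it at 72 h.

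For lactic acid the fit decided the count. Without the block none of the 10 genes was called in Tcon, in any of 4 comparisons, where 0.0835% and 0.23% of all genes were called at 24 h and 0.0696% and 2.16% at 72 h, without and with TGF-beta. In each of these 4, 3 of the 10 had an unadjusted p under 0.05 in edgeR's test. Over all 14375 genes 1027, 1197, 1289 and 2036 did, in the same order. DESeq2 called 0, 0, 0 and 1 of the 10 (Itga4), and 61, 93, 59 and 503 of all genes. In Treg 2 of 10 were called (Itga6 higher and Itgb8 lower, background 3.51%, with 1.49% higher and 2.02% lower). DESeq2 called 3 there, with Itgb7 higher as well, and 709 of all 14375 genes. Leaving out replicate 2 or 3 of Treg in TGF-beta plus lactic acid medium took the edgeR count of 2 to 0. These fits called 138 and 213 of all genes, against 504 with every library. Leaving out replicate 1 or 3 of Treg in TGF-beta medium took the count to 1, with 165 and 335 of all genes called. With the block the counts were 1 (Itgb7) and 1 (Itga4) at 24 h (backgrounds 4.27% and 6.7%), 2 and 3 in Tcon at 72 h (3.42% and 15.4%) and 8 in Treg (19.7%). The lactic acid effect was not shown to differ between Treg and Tcon, or between Tcon with and without TGF-beta. For either difference 0 of 10 passed with edgeR without the block (backgrounds 0.0% and 0.104%) and 0 of 10 with it (0.0% and 4.54%). DESeq2 called 0 of 10 for both, and 0 and 54 of all 14375 genes. In edgeR's test without the block 0 and 2 of 10 had an unadjusted p under 0.05, as did 381 and 1121 of all genes.

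**Figure D5:**
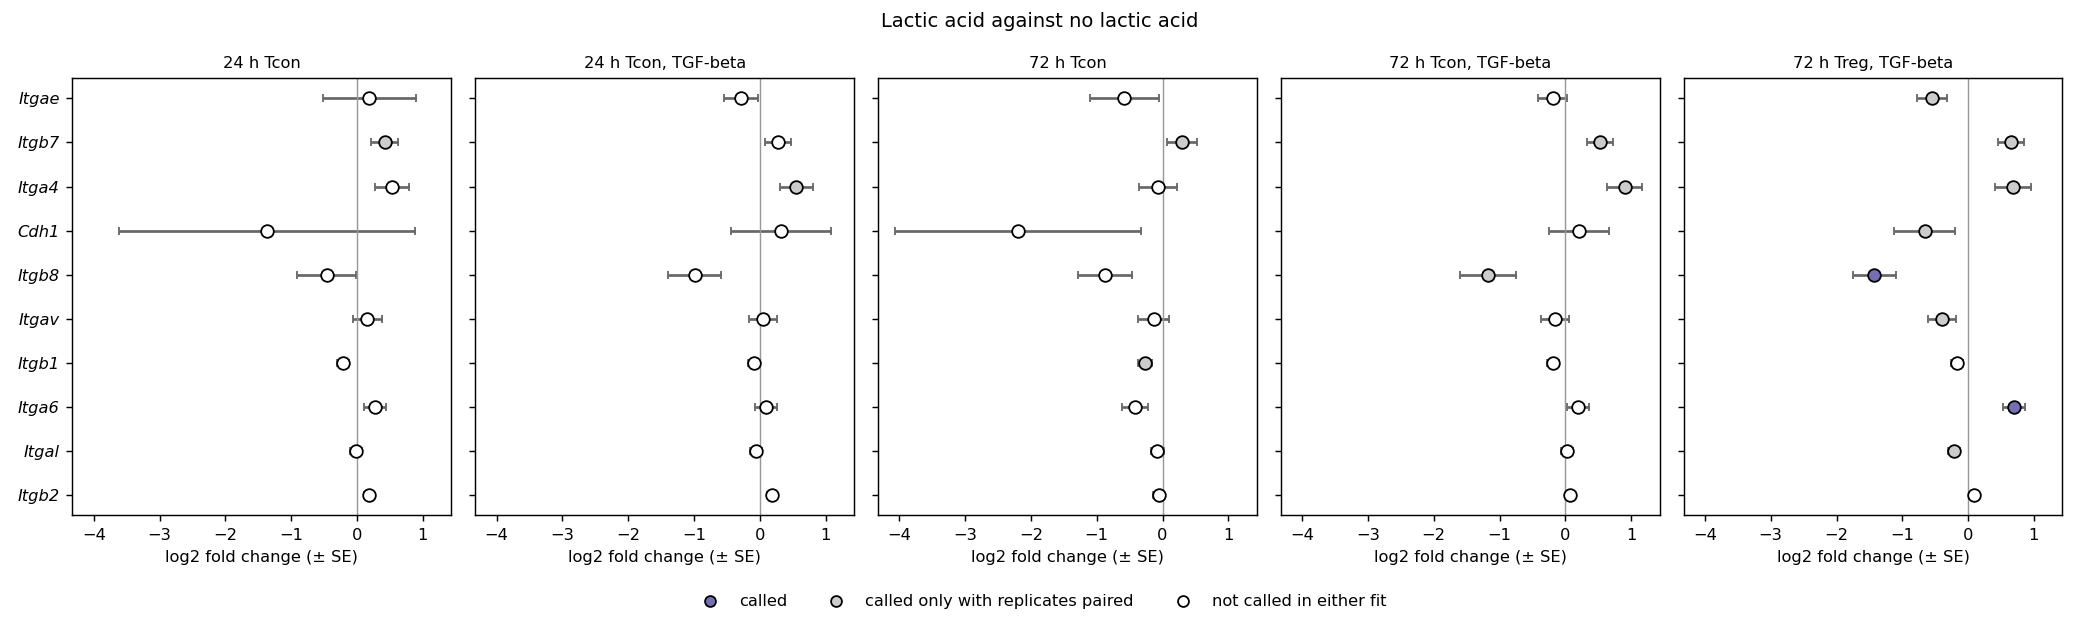
Log2 fold change (± SE) of each gene with lactic acid against without, in 24 h Tcon, 72 h Tcon and Treg, with coloured symbols for called genes, grey for those called with the replicate block alone and white for the rest. Itgb8 lies left of 0 and Itgb7 right of it in all 5 panels.

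Between Treg and Tcon, 2 of 10 were called in TGF-beta medium (Itgb8 and Itga6, both higher, background 0.216%, with 0.0626% higher and 0.153% lower) and 3 in TGF-beta plus lactic acid medium (with Itgal lower, background 2.55%, with 1.27% in each direction). With the block these were 5 (2.94%) and 6 (12.7%). The count of 2 fell to 0 without replicate 3 of Tcon in TGF-beta medium. That fit called 2 of all genes tested, against 31 with every library. The count fell to 1 without replicate 1 of those Tcon (23 of all genes called) or replicate 2 or 3 of Treg in that medium (6 and 14). The sort itself separated Foxp3, so these groups differ in reporter level by construction.

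Of the 17 other integrin genes, 9 had enough counts to be tested and Itga8 had 0 counts in all libraries. With TGF-beta at 72 h, 4 fell and none rose in medium without lactic acid (background 24.5% of all genes), and 4 fell and 1 rose with it (background 45.0%). With the block 4 fell and 1 rose (45.4%), and 5 fell and 1 rose (60.0%). Their median log2 fold changes were -0.88 and -1.12, beside -0.03 and -0.02 over all genes tested. Itga3, a laminin receptor subunit and partner of beta1, fell from 37.3 ± 16.5 to 5.54 ± 3.47 CPM (log2 -2.75 ± 0.37, adjusted p = 6.93e-06) and with lactic acid from 19.8 ± 7.61 to 3.18 ± 1.00 CPM (log2 -2.64 ± 0.37, 4.33e-06). Itga2, a collagen receptor subunit and also a partner of beta1, fell from 7.44 ± 1.83 to 1.23 ± 0.553 CPM (adjusted p = 0.00353) and from 8.97 ± 4.41 to 0.749 ± 0.106 CPM (7.67e-05). Both thus went the way of Itgb1, as did Itga4 at 72 h. Itga6 and Itgav, also genes of beta1 partners, went the other way. Itgb3, a partner of alphaV, fell from 88.4 ± 50.9 to 23.9 ± 1.03 CPM (adjusted p = 0.00110), a call lost without replicate 2 of 72 h Tcon in control medium (adjusted p = 0.0936). It also fell from 112 ± 45.1 to 37.0 ± 8.64 CPM with lactic acid (0.00107). Platelet genes, 4 in the list with 2 under 1 CPM in every library, summed to 1.11 to 3.07 CPM in Tcon of 72 h control medium, 0.272 to 1.74 with lactic acid, 0.0822 to 0.792 with TGF-beta and 0 to 1.23 with both, and their part in the Itgb3 and Itga2 values was not tested.

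Itga9, a further partner of beta1, fell with TGF-beta at 72 h (log2 -3.91 ± 0.61, adjusted p = 4.63e-05) and, with less support, with lactic acid (log2 -1.79 ± 0.65, 0.0273). That call was lost without any 1 of replicates 1 and 3 of 72 h Tcon in lactic acid medium and replicates 1, 2 and 3 of 72 h Tcon in TGF-beta plus lactic acid medium (adjusted p from 0.0509 to 0.126). Itga9 was near the floor, with 178 counts over all libraries: 2.55 ± 1.11 to 0.161 ± 0.0842 CPM and, with lactic acid, 0.728 ± 0.363 to 0.193 ± 0.0778 CPM. At 24 h it was the single other integrin called, again lower (0.954 ± 0.194 to 0.170 ± 0.0812 CPM, log2 -2.41 ± 0.64, adjusted p = 0.0143). That call was lost without any 1 of replicate 2 of 24 h Tcon in control medium and replicates 2 and 3 of 24 h Tcon in TGF-beta medium (adjusted p from 0.0518 to 0.0795). Itga7, a laminin receptor subunit, rose with TGF-beta at 72 h in medium with lactic acid, against the direction of Itgb1. It went from 11.5 ± 6.80 to 36.3 ± 27.2 CPM (log2 1.67 ± 0.49, adjusted p = 0.00814). That call was lost without any 1 of replicate 2 of 72 h Tcon in lactic acid medium and replicate 1 of 72 h Tcon in TGF-beta plus lactic acid medium (adjusted p from 0.0511 to 0.156). With the block it rose without lactic acid too (log2 0.75, adjusted p = 0.00331). Itgb5, a partner of alphaV, fell with the block with lactic acid present (1.06 ± 0.359 to 0.481 ± 0.137 CPM, log2 -1.12, adjusted p = 0.0305). No other integrin was called for lactic acid or between Treg and Tcon without the block. With it the backgrounds were 4.27%, 6.7%, 3.42%, 15.4% and 19.7% for lactic acid and 2.94% and 12.7% between Treg and Tcon. In that order 2, 1, 3, 1 and 1 of the 9 were called for lactic acid at 24 h without and with TGF-beta, in 72 h Tcon without and with TGF-beta and in Treg, and 0 and 1 between Treg and Tcon without and with lactic acid. Itga5, the fibronectin receptor subunit that pairs with beta1, was higher with lactic acid in 4 of these: by log2 0.34 (adjusted p = 0.0216) and 0.33 (0.0177) at 24 h, 0.24 (0.0410) in 72 h Tcon with TGF-beta and 0.26 (0.0224) in Treg.

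Of 12 genes of cadherins, catenins and E-cadherin's other contacts, 5 were tested. The alpha-catenin gene Ctnna1, whose product links cadherin to actin, rose with TGF-beta at 24 h from 53.2 ± 4.55 to 89.0 ± 4.70 CPM (log2 0.74 ± 0.12, adjusted p = 0.000144) and with lactic acid from 46.6 ± 4.11 to 84.8 ± 4.47 CPM (2.23e-05). It was also called at 72 h in both media, by log2 0.46 ± 0.14 (adjusted p = 0.0150) and, with lactic acid, log2 0.42 ± 0.12 (0.00694). The first of these was lost without any 1 of replicate 2 of 72 h Tcon in control medium and replicate 1 of 72 h Tcon in TGF-beta medium (adjusted p from 0.0696 to 0.328). The second was lost without replicate 2 of 72 h Tcon in lactic acid medium (adjusted p = 0.0649). Over the 4 comparisons 3, 2, 2 and 1 of the 5 rose and none fell, at 24 h without and with lactic acid and then at 72 h (backgrounds 11.3%, 12.4%, 24.5% and 45.0%). With the block these were 4, 4, 3 and 4 (31.7%, 32.4%, 45.4% and 60.0%). None of the 5 was called for lactic acid or between Treg and Tcon without the block. With it Jup, which encodes plakoglobin, a catenin of the cadherin complex, was lower with lactic acid in 72 h Tcon with TGF-beta (log2 -1.60, adjusted p = 0.000137) and in Treg (log2 -1.35, 0.00179). It was among 3 and 2 of the 5 called there, all lower (backgrounds 15.4% and 19.7%).

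Of 29 genes that connect integrins to the cytoskeleton or switch them on, 26 were tested. At 72 h 5 rose and 3 fell with TGF-beta (background 24.5% of all genes), and 12 rose and 3 fell with lactic acid in the medium (background 45.0%). With the block these were 9 and 5 (background 45.4%), and 15 and 5 (60.0%). In the 24 h media 5 rose and 3 fell without lactic acid (background 11.3%) and 5 rose and 2 fell with it (12.4%), or 7 and 5, and 8 and 3, with the block (31.7% and 32.4%). For lactic acid 1 rose, Skap2, in Treg (background 3.51%), where the block called 9 higher and 2 lower (19.7%). The Skap2 call without the block was lost in 5 fits with 1 library left out (adjusted p from 0.0505 to 0.0804). Skap1, an adaptor that carries T cell receptor signals to LFA-1, rose with TGF-beta from 44.3 ± 3.06 to 117 ± 5.88 CPM (log2 1.40 ± 0.15, adjusted p = 4.30e-07). With lactic acid in both media it rose from 52.8 ± 1.69 to 142 ± 5.78 CPM (1.28e-08). Cytip, a regulator of LFA-1 adhesion, rose by log2 1.06 ± 0.19 (adjusted p = 0.000156) and 1.18 ± 0.16 (3.42e-06). Rapgef1, an exchange factor for the small GTPase Rap1, fell at 24 h (log2 -0.35 ± 0.08, adjusted p = 0.00357) and at 72 h (log2 -0.41 ± 0.09, 0.00109). The list thus held changes in both directions, with median log2 fold changes of 0.10 and 0.23 at 72 h.

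Of 19 integrin ligand genes 13 were tested. Vcam1, the ligand of alpha4-beta1, rose with TGF-beta at 72 h from 1.29 ± 0.130 to 4.70 ± 1.22 CPM in Tcon (log2 1.86 ± 0.45, adjusted p = 0.00342). Lactic acid went with less of it in Tcon with TGF-beta (0.869 ± 0.204 CPM, log2 -2.43 ± 0.41, adjusted p = 0.00128), and Treg of TGF-beta medium held 0.807 ± 0.222 CPM, less than Tcon (log2 -2.52 ± 0.41, adjusted p = 0.00670). The latter was lost without any 1 of replicate 3 of 72 h Tcon in TGF-beta medium and replicate 2 of 72 h Treg in TGF-beta medium (adjusted p from 0.0568 to 0.0805). Thbs1, a matrix protein that can release active TGF-beta, was lower with lactic acid in Tcon with TGF-beta at 72 h (8.18 ± 2.49 to 1.33 ± 0.171 CPM, log2 -2.60 ± 0.43, adjusted p = 0.00106) and in Treg (13.0 ± 5.57 to 2.79 ± 1.22 CPM, 0.00202). Of 6 dendritic cell markers 5 were under 1 CPM in every library, and their sum, nearly all Zbtb46, was 3.56 to 13.2 CPM in those Tcon without and 1.23 to 2.39 with lactic acid, and 4.79 to 12.1 and 1.18 to 2.7 in Treg. The part of these markers in the Vcam1 and Thbs1 values was not tested. Fibronectin (Fn1) was low, and fell with TGF-beta at 72 h with lactic acid from 4.0 ± 1.98 to 0.484 ± 0.388 CPM (adjusted p = 0.00265). In all, 4 ligand genes rose and 4 fell with TGF-beta at 72 h (background 24.5% of all genes), and 4 rose and 5 fell with lactic acid present (background 45.0%). With the block 4 rose and 6 fell in each (backgrounds 45.4% and 60.0%). Between Treg and Tcon with lactic acid 1 was higher and 1 lower (background 2.55%), or 4 and 2 with the block (12.7%).

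Of 12 genes of latent TGF-beta and its handling 9 were tested. With TGF-beta at 72 h 3 rose and 1 fell (background 24.5% of all genes), or 5 and 2 with the block (45.4%). With lactic acid present 4 rose and none fell (background 45.0%), or 4 and 2 with the block (60.0%). Lrrc32, which encodes GARP, the protein that displays latent TGF-beta to alphaV-beta8 on regulatory T cells, rose with TGF-beta at 72 h in Tcon from 7.15 ± 7.81 to 66.8 ± 36.9 CPM (log2 3.20 ± 0.76, adjusted p = 0.00296) and with lactic acid from 7.22 ± 8.72 to 104 ± 27.3 CPM (5.32e-05). Tgfb1, the cytokine gene, rose at 24 h by log2 0.69 ± 0.09 (adjusted p = 7.71e-06), and Furin, the protease that cleaves its precursor, by 1.24 ± 0.13 (2.68e-07). Between Treg and Tcon the 1 gene of the list called without the block (background 2.55%) was Nrp1, a surface receptor of regulatory T cells, higher in Treg with lactic acid (34.8 ± 5.14 against 20.7 ± 3.85 CPM, log2 0.75 ± 0.19, adjusted p = 0.0340), in the medium where Itgb8, Itga6 and Itgal were also called. It was lost without any 1 of replicates 1 and 3 of 72 h Tcon in TGF-beta plus lactic acid medium and replicates 2 and 3 of 72 h Treg in TGF-beta plus lactic acid medium (adjusted p from 0.116 to 0.204). Tcon in TGF-beta medium held 37.2 ± 6.97 CPM of Nrp1, and its fall with lactic acid in Tcon was called (log2 -0.85 ± 0.19, adjusted p = 0.0188). That call was lost in 3 of 6 fits with 1 library left out.

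All 15 genes of tissue residency and homing were tested. With TGF-beta at 72 h 8 rose and 1 fell (background 24.5% of all genes), and with lactic acid present 10 rose and none fell (background 45.0%). With the block these were 10 and 2 (45.4%), and 11 and 2 (60.0%). For lactic acid in Treg 1 rose and 1 fell (background 3.51%), or 4 and 4 with the block (19.7%). Between Treg and Tcon with lactic acid none was higher and 2 were lower (background 2.55%), or 4 and 4 with the block (12.7%). Cd101, a surface marker of resident T cells that is often found with CD103, rose at 24 h from 0.835 ± 0.537 to 10.1 ± 0.618 CPM (log2 3.59 ± 0.33, adjusted p = 3.55e-08) and at 72 h from 2.41 ± 0.700 to 15.4 ± 3.29 CPM (1.88e-06). Runx3, a Runx factor known to act on alphaE, rose at 72 h by log2 0.89 ± 0.17 (adjusted p = 0.000307). Genes of recirculation rose too: Klf2, a factor that drives exit from tissue, by 4.19 ± 0.71 (0.000115) and the lymph node receptor Ccr7 by 1.06 ± 0.12 (9.68e-07). The members that rose therefore belong in part to residency and in part to recirculation. Markers of CD8 T and NK cells, which also carry alphaE, moved with TGF-beta as well: the sum of 7 genes was 12.4 to 14.5 CPM in 24 h control medium, 11.6 to 15.9 with lactic acid, 4.66 to 6.93 with TGF-beta and 6.03 to 10.9 with both. At 72 h in Tcon it was 10.7 to 19.9 CPM in control medium, 10.8 to 22.3 with lactic acid, 23.8 to 43.7 with TGF-beta and 55.6 to 66.6 with both, and in Treg 15.9 to 29.6 and, with lactic acid, 24.5 to 37.3. Of the 7 genes 4 were tested, of which 3 were called higher with TGF-beta at 72 h in each medium (backgrounds 24.5% and 45.0%). At 24 h 1 was called lower in each (11.3% and 12.4%). The highest levels in any library were Klrk1 31.0, Cd8a 16.1, Klrd1 15.2, Cd8b1 14.1 and Klre1 1.10 CPM, with Ncr1 and Klrb1c under 1 CPM in every library. The part of these markers in the Itgae values was not tested.

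By the measure of Pearson correlation of log2 CPM over the 29 libraries, searched over the 9955 genes whose mean level reached 5 CPM, those most like Itgae were Zbtb18 (0.978), Rragd (0.972), Npc1 (0.971) and Bmp2k (0.966). Those most like Cdh1 were Nlrc3 (0.965), Sema4d (0.963), Specc1 (0.957) and Dgkh (0.954), and those most like Itgb7 were Arhgap4 (0.957), Cd37 (0.951), Ifngr1 (0.951) and Acp5 (0.949). For Itgb8 the closest were weaker: Cdc42bpb (0.781), Creb1 (0.778), Utp14b (0.772) and Ptger4 (0.759). Among the 10 genes themselves, Itgae was closest to Cdh1 (0.946), then to Itgb2 (0.875) and Itgb7 (0.869), while its correlation was negative with Itga4 (-0.632), Itgal (-0.661) and Itgb1 (-0.398). The libraries fall into few groups that share media and times, so these values describe a common pattern over those groups.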

How the data were processed

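Polyadenylated RNA was sequenced as stranded single reads of 65 bases, per the labels' protocols. The deposited values are raw counts per gene. STAR 2.7.3a, HTSeq 0.12.4, DESeq2 1.30.1 and GRCm39 are named in the submitters' processing notes. Which annotation release and strand setting were used is not given in the sources used here. Entries that name no gene (reads in no gene 5.72% to 11.2%, of low quality 13.3% to 17.0% and ambiguous 1.01% to 1.13%) were left out.

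Counts were fitted with edgeR 4.0.16 in R 4.3.3 over all 29 libraries (TMM, filterByExpr with a minimum count of 10 and total of 15), without covariates, in 15 pairwise comparisons and 4 interactions. The prior count was 0.125, and the SE is the absolute log2 fold change divided by the square root of F. The script was checked on simulated data. All 10 members are named. Other genes come from lists: every called integrin, and at most 4 genes of each other list with the smallest adjusted p. The members and lists were chosen with earlier results of these data known. 

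Deviations from the group means went together in libraries of one replicate number within a time point (correlations of 0.123 to 0.772) and not between times (-0.062 to 0.146), so the block was the replicate number within a time point, or over all libraries for comparisons of times. The alternatives tried were RLE scaling, DESeq2 1.42.0, omission of the filter, the compared groups alone, the block, each library left out and, chosen after seeing the data, female libraries only.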

Additional observations from a re-analysis of the deposited data

Results flagged for a closer look

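The effect of TGF-beta in Tcon differed between 24 and 72 h for 3 of the 10 genes by a test of the difference itself, in edgeR's quasi-likelihood fit. Of all genes tested, 5.73% were called for this difference without lactic acid and 14.4% with it. Without lactic acid, the effect at 72 h minus that at 24 h was log2 -1.19 ± 0.14 for Itgb1 and -2.49 ± 0.39 for Itga4. With lactic acid it was -1.24 ± 0.13 for Itgb1, -1.54 ± 0.37 for Itga4 and 1.32 ± 0.25 for Itga6. The estimate for Itga4 was above 0 at 24 h and below it at 72 h, though its 24 h rise without lactic acid was called with the block alone in edgeR. Itgb1 fell and Itga6 rose at both times, each with the larger effect at 72 h. For Itga6 this difference was called with lactic acid, and without lactic acid with the block alone.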

How the results depend on the processing

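Of the 92 log2 fold changes and interactions of the 10 genes called in the fit with or without the replicate block, none changed direction under any alternative. The number kept on their side of the threshold was 83 with DESeq2, 90 with RLE size factors, 79 without the filter on low counts, 77 in the compared groups alone (where 90 could be fitted), 77 in female libraries only (an alternative chosen after seeing the data) and 59 with the replicate block, where 32 more passed and 1 was lost (Itgae over time in control medium). With 1 library left out, 548 values stayed on their side, 50 were lost and 8 gained. Group means moved by less than 1 SD under RLE factors and under raw totals. The cause of these changes was not tested. Counts of the 10 genes called moved for lactic acid as follows, with the genes called of all those tested in parentheses. At 24 h without TGF-beta the count of 0 became 1 in the compared groups alone (146 of 12052) and 1 with the block (614 of 14375). At 24 h with TGF-beta it became 1 with the block (963 of 14375). At 72 h in Tcon without TGF-beta 0 became 2 with the block (492 of 14375). With TGF-beta 0 became 1 with DESeq2 (503 of 14375) and 2 without the filter (543 of 28590). It became 3 with the block (2211 of 14375) and 1 in female libraries only (835 of 14605). In Treg the count of 2 became 4 without the filter (668 of 28590) and 0 in the compared groups alone (16 of 12616). It became 8 with the block (2833 of 14375) and 4 in female libraries only (1089 of 14605). Between Treg and Tcon the count of 2 without lactic acid became 0 in the compared groups alone, where no gene at all was called (0 of 12790). With the block it became 5 (422 of 14375). The count of 3 with lactic acid became 5 without the filter (468 of 28590) and 6 with the block (1832 of 14375). For the difference of TGF-beta effects between times, the count of 2 without lactic acid became 5 with DESeq2 (1159 of 14375). It became 7 with the block (2794 of 14375) and 4 in female libraries only (1411 of 14605). The count of 3 with lactic acid became 5 with DESeq2 (2382 of 14375) and 6 with the block (4831 of 14375). Pairing by replicate number moved no other count of the 10 genes by more than 1.5 times. With each library left out in turn, counts ranged from 0 to 2 for lactic acid in Treg, 3 to 6 for TGF-beta at 24 h with lactic acid, 0 to 2 for Treg against Tcon without lactic acid and 3 to 6 for time in control medium. Over all genes these fits called 138 to 630, 976 to 1756, 2 to 50 and 3973 to 6760, in the same order. Depth limits Cdh1 and Itgae without TGF-beta, and Itgb8 throughout.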
